A study of Homo sapiens with 9 samples.

Results

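UBR4 was the protein-coding gene with the most SF3B1 binding sites in K562 cells, and this account follows its 279 sites, of 96852 in the whole list, from the 5′ to the 3′ end of the gene. The members were the sites on the minus strand of chromosome 1 whose centre lay in the RefSeq span of UBR4, chr1:19074510-19210266 in GRCh38, 135757 nt. UBR4 was chosen by its number of sites, so that number and the first rank are the basis of the choice and not a result. No test was made, because the data were 1 merged list of positions with no value per replicate.

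UBR4 is a very large E3 ubiquitin ligase. It belongs to the UBR proteins of the N-degron pathway, which recognise destabilising N-terminal residues and mark the protein for degradation. It works with KCMF1 and is known for switching off the stress response to failed mitochondrial import. Its gene is divided into a great many introns, each of which must be removed from the transcript. SF3B1 is a subunit of the U2 snRNP, the particle that pairs with the branch point near the 3′ end of an intron. It is held on the RNA on either side of the branch point. Each intron of a long transcript therefore offers SF3B1 a place to bind.

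The study used iCLIP, in which ultraviolet light fixes a protein to the RNA it touches and sequencing finds the crosslinked nucleotides. Cells were irradiated at 254 nm with 400 mJ/cm2, without any other treatment. The list is attached to 3 libraries made with an SF3B1 antibody from K562 cells with SF3B1 wt/wt, bought from Horizon Discovery. The other 6 libraries, 2 of SF3B1 from K562 cells with SF3B1 K700E/wt and 4 of U2AF2 from K562 cells with SF3B1 wt/wt from ATCC, were not analysed here. Nothing in the labels says whether the libraries of a group came from separate cultures. The list's own header says that sites had to be reproduced by all replicates of either condition. The second condition is not named, so no site of UBR4 can be given to 1 genotype. The depth is unknown, and expression was not measured, so a gene with more RNA and a gene with denser binding cannot be told apart.

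K562 is an established human leukaemia line with erythroid and myeloid features, whereas the labels describe its origin as lymphoid. Of 10 erythroid or myeloid marker genes, 6 held sites, among them TFRC, the transferrin receptor, with 121 and ANK1 with 68. GATA1 had 6 sites, and HBG1, HBG2 and KLF1 had 0. Of 10 lymphoid marker genes, 0 held a site. Among all 20050 protein-coding genes, 36.9% held at least 1 site that lay in no other protein-coding gene.

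The rule took only sites on the minus strand, from which UBR4 is transcribed, so the strand of the 279 sites was fixed by it. The opposite strand held 0 sites within the gene, which allows a share of up to 1.08% by counting error alone. The sites, each 5 nt wide, covered 1.03% of the gene. The site nearest the 5′ end, chr1:19202032-19202036, lay 8.23 kb inside the gene, and the site nearest the 3′ end, chr1:19076715-19076719, lay 2.21 kb before its limit. The promoter window of UBR4, chr1:19210217-19210516, held 0 sites. These distances count from the outermost RefSeq limits, and the start and end used in K562 cells may differ.

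The ends of the UBR4 span were clear, with no site close outside either of them. Upstream, the nearest sites were 3.30 and 3.35 kb away and on the plus strand, within EMC1-AS1, a long non-coding RNA gene that begins 0.12 kb from UBR4 in the opposite direction. The nearest minus-strand site upstream lay 17.2 kb away in EMC1, which encodes a subunit of the ER membrane protein complex and had 34 sites in 35.9 kb. Downstream, the nearest site was 189 kb away. IFFO2, the next protein-coding gene on that side, held 0 sites in 52.4 kb.

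The sites fell into short clusters. Neighbours at most 60 nt apart were linked into 166 clusters, 1.68 sites each on average. Of these, 98 (59.0%) were lone sites, and there were 36 clusters of 2 sites, 22 of 3, 7 of 4 and 3 of 5. The 68 clusters with more than 1 site had a median extent of 43 nt, from 10 to 183 nt. UBR4 thus carried many small footprints and no very large one.

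The pooled values of the other 7400 genes with sites were 1.57 sites per cluster and 63.3% single sites. Among the 266 genes with 50 or more sites, UBR4 ranked 139th in sites per cluster. Its clusters numbered 1.22 per kb against a median of 0.544, rank 41, and its sites 2.06 per kb against 0.887, rank 43. UBR4 was thus first neither in length nor in density. At 136 kb it was the 72nd longest of these genes. Both densities rise with the number of sites, by which UBR4 was chosen.

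The clusters of 5 sites differed in form. The cluster at chr1:19104891-19105073 was the longest of the gene, with 5 sites spread over 183 nt and no neighbours within 12 nt of each other. The cluster at chr1:19110421-19110520 spread 5 sites over 100 nt. The cluster at chr1:19101648-19101699 held 5 sites in 52 nt. All 3 lay between 99.7 and 108.6 kb from the 5′ limit of the gene.

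The densest 1 kb of UBR4, chosen after its values were seen, held 14 sites in 5 clusters at chr1:19164451-19165391, about 44.9 kb into the gene. Its first cluster in the direction of transcription, chr1:19165359-19165391, was a run of 4 sites in 33 nt with every neighbour within 12 nt. The window held 5.02% of the sites of UBR4, the lowest such share among the 266 genes, whose median was 15.2%. The share is taken of all sites of a gene, so it is not independent of their number, by which UBR4 was chosen.

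Many clusters had the form of a paired footprint. Within a cluster, sites at most 12 nt apart were joined into an element, and a cluster with exactly 2 elements whose mean positions lay 25 to 45 nt apart was counted as paired. UBR4 had 35 paired footprints, 21.1% of its clusters (95% Wilson interval 15.6% to 27.9%), and they held 90 of its sites. In the other genes 17.4% of clusters were paired, a value inside that interval. UBR4 ranked 93rd of 266 by this share. The interval treats clusters as independent, which they may not be.

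The spacing within pairs had a median of 37 nt in UBR4, with quartiles of 33.5 and 40.5 nt and limits of 28 and 43.3 nt. In the other genes the median was 36 nt with quartiles of 32 and 39.5 nt. In UBR4, 6 further clusters had 2 elements outside the required range, 2 closer and 4 farther apart, from 13 to 59 nt. Another 10 clusters had more than 2 elements. A stretch of 18 to 38 nt without a site separated the elements of the pairs.

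The narrowest and widest pairs lay in different parts of the gene. Elements 28 nt apart were found at chr1:19192565-19192597, 17.7 kb from the 5′ limit, and at chr1:19110682-19110714, 99.6 kb from it. The widest pair, 43.3 nt, was at chr1:19156439-19156492, 53.8 kb from it, and the next widest, 43 nt, at chr1:19099684-19099731, 110.5 kb from it. Of the 35 pairs, 12 had a spacing below 35 nt and 23 a spacing of 35 nt or more. Among the clusters with more than 2 elements, that at chr1:19141785-19141861 held 4 single sites over 77 nt, and that at chr1:19140900-19140942 held 3 single sites over 43 nt.

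**Figure D1:**
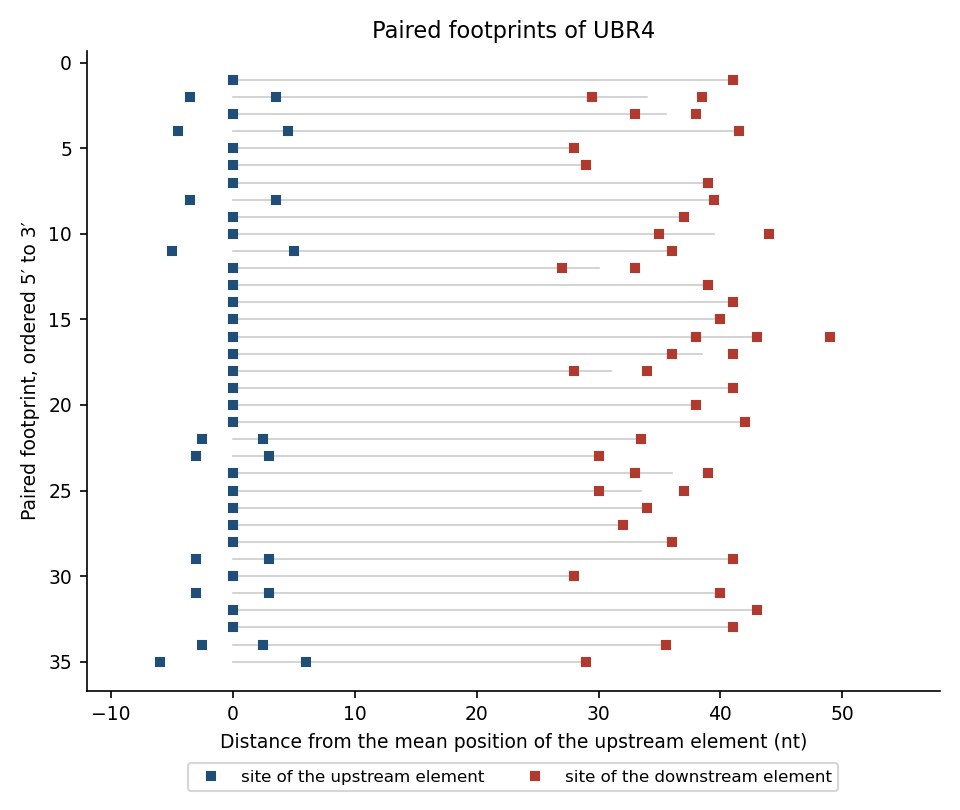
Each row is 1 of the 35 paired footprints of UBR4, ordered 5′ to 3′ down the page, and squares are sites at their distance in nt from the mean position of the upstream element. Blue squares are sites of the upstream element and red squares those of the downstream element, whose mean positions lie 28 to 43.3 nt away.

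Both elements of the pairs carried the same number of sites, 45 upstream and 45 downstream, a ratio of 1.00. The ratio in the other genes was 1.05. In UBR4 17 pairs had 1 site on each side, 9 had 2 upstream and 1 downstream, and 7 had 1 upstream and 2 downstream. The 2 remaining pairs were the fullest. At chr1:19198692-19198738 there were 2 sites on each side, and at chr1:19156439-19156492 there were 1 upstream and 3 downstream.

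The pairs were spread along most of the gene. The first was the cluster chr1:19201823-19201868, 8.40 kb from the 5′ limit, with elements 41 nt apart. The last was chr1:19093494-19093533, 116.7 kb from that limit, with elements 29 nt apart. Of 10 equal bins along the gene, bin 10 at the 3′ end held 0 pairs among its 7 clusters, and bin 5 held the most, 8 pairs among 25 clusters.

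From a paired footprint the next site downstream lay at a median of 307 nt, with quartiles of 214 and 1113 nt. The next site upstream lay at a median of 372 nt, with quartiles of 194 and 801 nt. Of the 35 pairs, 14 had their next downstream site and 13 their next upstream site at 100 to 250 nt. These values show no clear direction within UBR4.

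Distances between all sites of UBR4 had a short and a long component. The most frequent single distance was 6 nt, with 15 pairs of sites, and 10 pairs lay directly end to end at 5 nt. Of the 254 region numbers that the list gave to UBR4 sites, 25 were shared by 2 sites, and these lay 5 to 10 nt apart. These close neighbours were counted as separate sites.

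At the paired distance there were 70 pairs of sites 25 to 45 nt apart and 22 pairs 46 to 66 nt apart, a ratio of 3.18. The other genes gave 3.57. Pairs 140 to 180 nt apart numbered 46 and pairs 60 to 100 nt apart 24, a ratio of 1.92 against 1.71 in the other genes. On both ratios UBR4 stood near the middle of the 266 genes, at rank 118 and rank 113 of the 262 in which they could be formed.

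The long component lay farther out in UBR4 than in the pooled list. After summing over 21 adjacent distances, the highest count between 100 and 290 nt was at 227 to 235 nt in UBR4. In the other genes it was at 162 nt. The UBR4 counts were small and nearly as high around 200 nt, so the place of its highest count is uncertain. Pairs 200 to 270 nt apart made up 26.9% of the 432 pairs of UBR4 that were 5 to 300 nt apart, and 15.7% in the other genes. The median of the other genes with at least 50 sites was 17.6%, and UBR4 ranked 15th of 266. The range was chosen after the distribution was seen, and the pairs of a gene share sites, so no test was made.

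**Figure D2:**
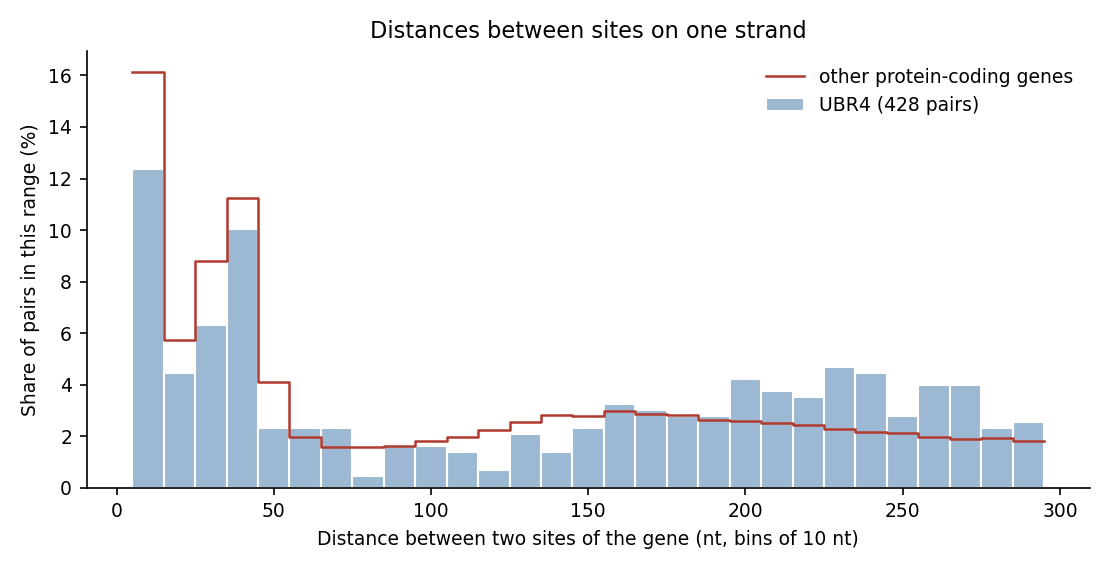
The share in percent of pairs of sites is plotted against their distance in nt, in bins of 10 nt from 5 to 294 nt, with bars for the 428 pairs of UBR4 and a red line for the other protein-coding genes. Both are high below 15 nt and again near 40 nt, and the UBR4 bars stand above the line from about 200 nt onwards.

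Clusters followed each other at short and long gaps. The 165 gaps between neighbouring clusters had a median of 285 nt, with quartiles of 189 and 766 nt, from 62 nt to 8.82 kb. The pooled median gap of the other 7400 genes, most of which hold far fewer sites, was 766 nt. Among the 266 genes with 50 or more sites the median of this value was 352 nt, and UBR4 ranked 171st from the longest, with 95 genes below it. Gaps of 100 to 250 nt made up 36.4% of those in UBR4 (95% Wilson interval 29.4% to 43.9%) and 23.97% in the pooled genes. Gaps over 2 kb numbered 14, which was 8.48% of gaps, against 33.99% in the pooled genes. Both shares depend on the number of sites, by which UBR4 was chosen. Among the 266 genes the median number of gaps over 2 kb was 8. UBR4 ranked 51st from the highest, tied with other genes, with 206 genes below it.

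The 14 gaps over 2 kb together took up 53.7 kb, or 39.6% of the gene, and split the sites into 15 blocks. Most blocks were short and separate, and 1 was long. The longest gap, 8.82 kb, followed 72.3 kb from the 5′ limit, and its share of the gene length, 6.50%, ranked only 252nd of the 266 genes, whose median was 14.1%. UBR4 was thus among the genes whose longest gap was a small share of their length. More sites leave shorter gaps, so this rank is not independent of the number of sites, by which UBR4 was chosen.

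In the first part of the gene there were 5 small blocks. The block from 8.23 to 8.44 kb held 3 sites, and that from 10.7 to 13.2 kb, chr1:19197110-19199568, held 18 sites in 10 clusters. The next blocks held 7 sites from 16.7 to 18.1 kb, 13 sites from 22.7 to 26.5 kb and 10 sites from 30.9 to 32.6 kb. Each of the 5 contained 1 or 2 paired footprints, and gaps of 2.26 to 4.58 kb lay between them.

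The central block, chr1:19137955-19175063, ran from 35.2 to 72.3 kb without a gap over 2 kb. It held 135 sites, or 48.4% of all (95% Wilson interval 42.6% to 54.2%), in 27.3% of the gene's length. These sites formed 81 clusters, 17 of them paired. The density was 3.64 sites per kb, 1.77 times that of the whole gene. Blocks were drawn from these same sites and leave out every gap over 2 kb, which favours a density above that of the gene. The interval does not allow for this. Several shorter blocks were denser, such as that from 104.4 to 110.6 kb with 5.36 sites per kb. Others were less dense, such as that from 81.1 to 87.2 kb with 2.16. Gaps over 1 kb divided the central block into 10 runs. The fullest held 36 sites in 22 clusters from 44.6 to 50.8 kb. Another held 27 sites from 53.3 to 58.4 kb and another 21 sites from 61.6 to 66.4 kb.

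After the longest gap, 6 blocks lay between 81.1 and 116.8 kb. The largest, chr1:19099684-19105839, held 33 sites in 18 clusters from 104.4 to 110.6 kb, with 12 single sites and 2 paired footprints. It contained 2 of the clusters of 5 sites. The others held 6 to 14 sites each, and 1 to 3 paired footprints.

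The 3′ end was sparse. A gap of 6.36 kb followed the block that ended at 116.8 kb, and beyond it lay 5 sites from 123.1 to 125.5 kb, 1 site at 128.7 kb and 2 sites at 132.2 and 133.5 kb. These last 3 blocks held 0 paired footprints. Exon and intron limits were not used here, so blocks and gaps are not matched to single introns.

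**Figure D3:**
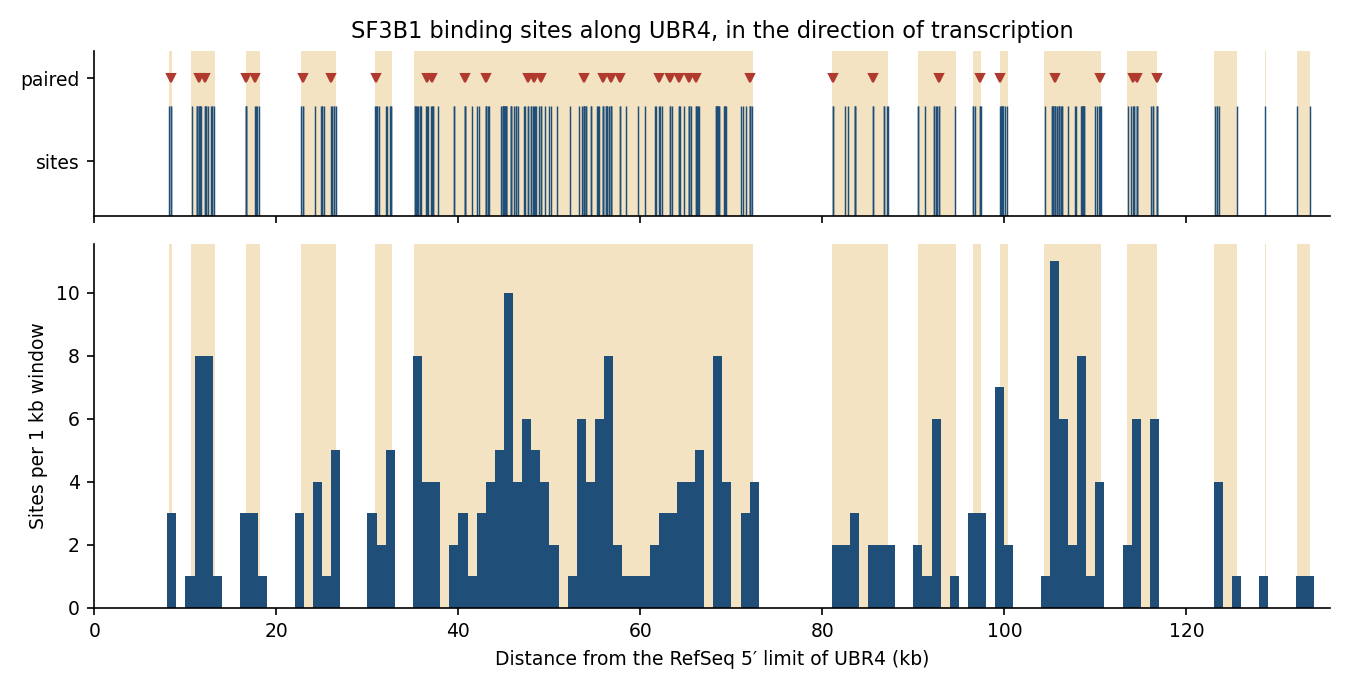
The upper panel marks each of the 279 sites of UBR4 as a line and each paired footprint as a red triangle, and the lower panel counts sites in windows of 1 kb, both against the distance in kb from the RefSeq 5′ limit. Shaded spans are the 15 blocks separated by gaps over 2 kb, and the long central block from 35.2 to 72.3 kb holds 135 sites.

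The distribution along UBR4 did not rise towards the 3′ end. The 10 bins, each 13.6 kb long, were numbered from the 5′ end. From bin 1 to bin 10 they held 21, 20, 31, 53, 42, 21, 21, 39, 23 and 8 sites. There were 2 high stretches, bins 4 and 5 with 3.90 and 3.09 sites per kb and bin 8 with 2.87, and bin 10 was lowest with 0.589.

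Bins 1 to 5 held 167 sites and bins 6 to 10 held 112, a ratio of 3′ to 5′ of 0.671. Bins 6 to 10 thus held 40.1% of the sites (95% Wilson interval 34.6% to 45.99%), while the median of the 266 genes was 61.7% and 48 of them had a lower share than UBR4. The middle site lay 56.7 kb into the gene, 41.8% of its length. The interval treats sites as independent, although sites of 1 cluster are not.

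At the ends, bin 10 of UBR4 held 8 sites, or 2.87% (95% Wilson interval 1.46% to 5.56%), and bin 1 held 21 sites, or 7.53% (4.98% to 11.2%). Over the 265 other genes with at least 50 sites, bin 10 held a mean of 13.1% (SD 14.8) of a gene's sites and bin 1 held 3.27% (SD 6.99). The UBR4 value of bin 1 lay within 1 SD of its mean. In bin 10 the SD exceeded the mean, so no gene could lie more than 1 SD below it. Among the 266 genes the median share of bin 10 was 8.70%, and 68 genes had a lower share than UBR4. Fewer sites in bin 10 than in bin 1 were found in 44 of the 266 genes, 16.5%, and more in 201. UBR4 was 1 of the 44. The median number of sites in bin 1 was 0, and a gene without sites there could not be among the 44. Bin 1 held sites in 105 genes. By the ratio of bin 10 to bin 1, 0.381, UBR4 ranked 75th from the highest of these, with 30 genes below it. Only 6 genes had more sites than UBR4 in bin 1, but this count is not independent of the total, by which UBR4 was chosen.

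**Figure D4:**
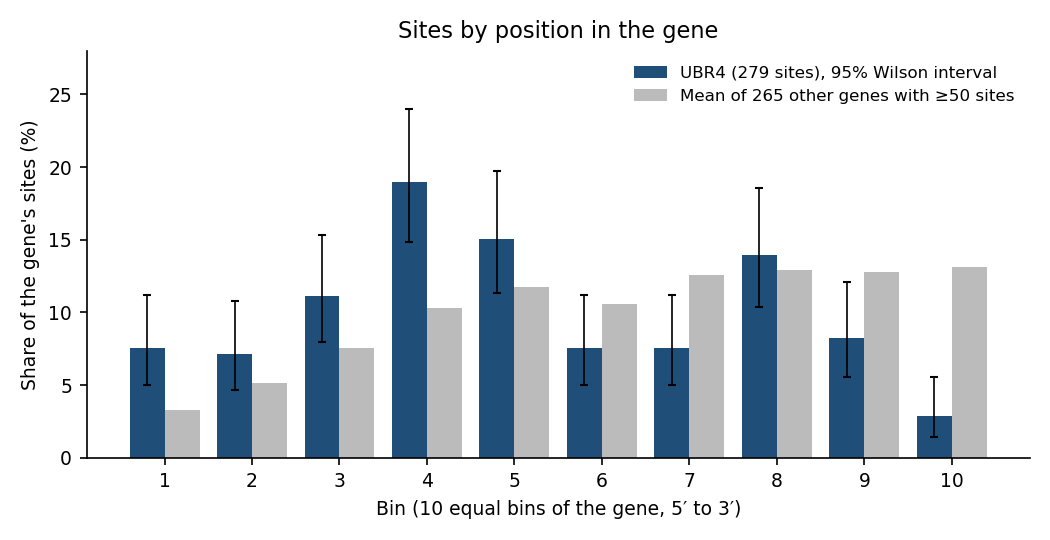
Bars give the share in percent of a gene's sites in each of 10 equal bins of its length, 5′ to 3′, in blue for the 279 sites of UBR4 with 95% Wilson intervals and in grey for the mean of 265 other genes with at least 50 sites. UBR4 peaks in bin 4 at 19.0% and is lowest in bin 10 at 2.87%, where the grey mean is 13.1%.

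The 2 genes next in number of sites differed from each other in this respect. The ratio of bin 10 to bin 1 was 0.289 in NUP214 and 1.33 in STXBP5, against 0.381 in UBR4. NUP214, which encodes a nuclear pore protein, had 247 sites, 45 in bin 1 and 13 in bin 10. STXBP5, which encodes tomosyn, a protein that binds SNARE proteins, had 210 sites, 12 in bin 1 and 16 in bin 10. Paired footprints made up 10.6% of clusters in NUP214 and 13.5% in STXBP5, against 21.1% in UBR4. The longest gap was 13.4 kb in NUP214, 12.3% of its length, and 32.3 kb in STXBP5, 17.4%.

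**Figure D5:**
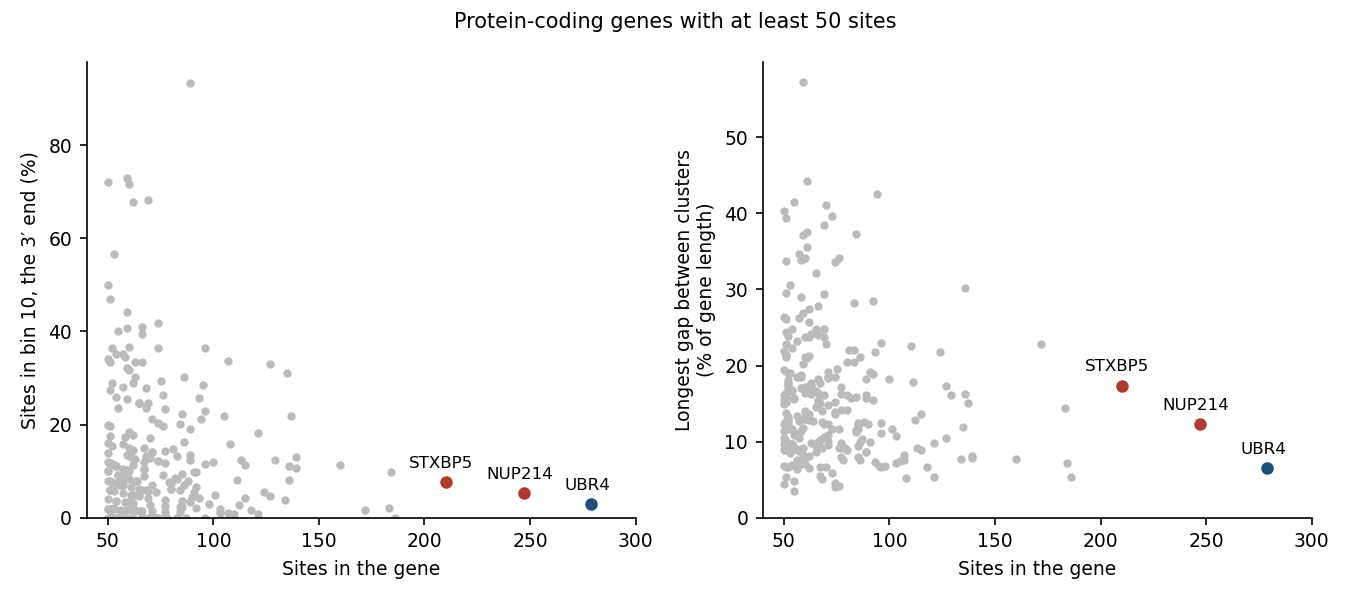
Each point is 1 of the 266 genes with 50 or more sites, placed by its number of sites and by the percentage of sites in bin 10 of the gene (left) or the longest gap between clusters in percent of gene length (right). UBR4, at 279 sites, has 2.87% of sites in bin 10 and a longest gap of 6.50%, below NUP214 and STXBP5 in both panels.

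The genes most like UBR4 in their profile over the 10 bins were EIF4G2, EP400 and BRWD1. Likeness was the summed absolute difference between the shares of sites, which can run from 0 to 2, over the 265 other genes with at least 50 sites. It was 0.313 for EIF4G2, 0.315 for EP400 and 0.333 for BRWD1, against a median of 0.848. EIF4G2, a translation regulator related to eIF4G, is only 11.9 kb long and had 50 sites. EP400, a chromatin remodelling ATPase, had 90 sites in 131 kb, and BRWD1, a bromodomain protein, had 118 in 137 kb. EIF4G2 and EP400 peaked in bin 4, as UBR4 did, and BRWD1 peaked in bin 8 with 17.8%. Bin 10 held 2.00% of sites in EIF4G2, 4.44% in EP400 and 1.69% in BRWD1. Neither EP400 nor BRWD1 had a site in bin 1, unlike UBR4.

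The other genes of the pathway of UBR4 each had fewer sites, as the choice of UBR4 fixes. The list held 20 genes, of which 17 (85.0%) had a site, beside 36.9% of all protein-coding genes. No expression matching was made, and UBR4 itself is 1 of the 17. Some genes of the list are counted but not reported by name.

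Among the ligases that recognise N-degrons, UBR2 had 85 sites, 0.656 per kb, of which 72 lay in bins 6 to 10 of the gene. UBR1 had 42 sites and UBR3, a related ligase, had 24. UBR7 had 1 site, and FBXO11, an F-box protein with a UBR domain, had 29, all in bins 6 to 10. None of these reached the 2.06 sites per kb of UBR4, a value that is not independent of the number of sites by which UBR4 was chosen. In UBR1, UBR2, UBR3 and FBXO11 bin 1 held 0 sites and bin 10 held 8, 3, 7 and 7.

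Enzymes that make or prepare N-degrons ranged from 0 to 34 sites. ATE1, which attaches arginine, had 5. NTAN1 and NTAQ1, which deamidate asparagine and glutamine, had 0 sites that lay in no other protein-coding gene. METAP1 and METAP2, which remove the first methionine, had 34 and 13.

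Partners of UBR4 and members of the stress response it switches off ranged from 0 to 33 sites. KCMF1 had 8, CALM2 and CALM3 had 0 and 4, and the ubiquitin-conjugating enzymes UBE2A and UBE2B had 2 and 14. EIF2AK1, the kinase HRI of the mitochondrial stress response, had 33 sites, 0.894 per kb, and its activator DELE1 had 12. Most of these genes are much shorter than UBR4.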

How the data were processed

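The members and the gene lists were chosen with earlier results of these data known. The deposited list is in BED form. Per the file headers, it holds merged sites of 5 nt that all replicates of either condition reproduced. The score column that the authors deposited was 0 in all rows, and no depth or read number is given. Per the submitters' processing notes, FastQC 0.11.8, STAR 2.6.1b and 2.7.3a, UMI-tools 1.0.0, bedtools 2.27.1 and the builds GRCh38.p10 and GRCh38.p12 were used, with no step named. The site caller is not given in the sources used here.

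Positions were made 1-based, and the centre was the position of a site. Genes and spans came from RefSeq (GRCh38.p14), and strands from its promoter table. For 1151 of 7401 genes with sites, the strand with more sites was used. Sites in more than 1 protein-coding gene were left out of counts per gene. Spacings and distances run in the direction of transcription. No test was made, since the list gives no value per replicate; planned results on exons, splice sites and sequence were not run. Named genes were UBR4, the 2 genes with the next most sites, the 3 with the most similar profile, its neighbours and the pathway list; marker genes came from a written list. Some genes of these lists are not reported here. Procedures were tested on simulated data. Python 3.11.15, NumPy 2.4.6, pandas 2.3.3, SciPy 1.17.1 and Matplotlib 3.10.9 were used.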

Additional observations from a re-analysis of the deposited data

How the results depend on the processing

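Of 21 alternative values for 10 results, 20 stayed within 1.5 times the count, or within the 95% counting interval of the ratio. Not all of the 20 were free to change. Taking the 5′ end as position moves all sites of UBR4 alike. The ratio of 3.18 could therefore not change by it, and the count of 279 sites could change only at the gene limits. The exception was the number of gaps between clusters, which was 14 over 2000 nt and 9 over 3000 nt. Over 1500 nt it was 21, just at the limit of 1.5 times. The number of blocks therefore depends on the gap length used. The ratio of upstream to downstream sites in pairs, 1.00, was 0.947 with elements linked at 8 nt and 1.03 with 1 site per region number, so it has no direction. Bin 10 over bin 1, 0.381, was 0.286 between the first and last site and 0.583 when clusters were counted. Alternatives on splice sites and exons were not run, since exon limits were not used here. No paired analysis was possible because single replicates have no values of their own here. Depth is unknown, so weakly bound places and places with little RNA cannot be told apart.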
